A study of Mus musculus with 6 samples.

Results

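The type 17 helper cytokines and their regulators described here are 7 genes, taken by symbol from the 24047 rows of the count table, and each had 1 row. They are Rora and Ahr, which encode transcription factors, Il17a, Il17f and Il22, which encode secreted cytokines, and Ccr6 and Il23r, which encode receptors. The RNA sequenced came from mice, with 3 libraries of wild type (WT) and another 3 that carry the label Srsf1-cKO, a conditional knockout of the splicing factor gene Srsf1. The question behind this comparison was which of these genes differ between the genotypes in activated helper T cells.

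Both groups were of a strain labelled B6.129, aged 7 weeks, and the design text gives 3 mice for each genotype. The Srsf1-cKO libraries carried floxed Srsf1 alleles and a Cre transgene labelled dLck.Cre, whose distal Lck promoter is active in T cells. The sources used here do not say whether the WT mice carried floxed alleles or Cre. Naive CD4 T cells of the spleen received anti-CD3 at 0.5 µg/mL and anti-CD28 at 1 µg/mL during 72 h of culture. PMA at 100 ng/mL and ionomycin at 1 µM, chemicals that bypass the antigen receptor, were given to all of them during the last step of 4 h. The cells are labelled Th0, and the labels name no added cytokine. All 8 CD4 T cell markers that were listed passed the filter on low counts, with a summed level of 2780 to 2895 CPM (counts scaled to a library of 1000000) in WT and 2317 to 3287 CPM in libraries labelled Srsf1-cKO. Of these 8 markers 1, Cd3g, rose (edgeR adjusted p = 0.0452), where 8.9% of all tested genes were called higher. That call held in 1 of 6 fits with a library left out, the one without WT replicate 2. With 3 mice each, p-values set the group difference against the spread between these libraries. Those of edgeR also draw on the spread of other genes.

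Type 17 helper cells are CD4 T cells that secrete interleukin (IL) 17A, IL-17F and IL-22, and they are known for defence of mucosal surfaces and for autoimmune inflammation. Their programme is set up by IL-6 and TGF-beta acting through STAT3, is directed in part by the nuclear receptor encoded by Rora, and is sustained by IL-23. The aryl hydrocarbon receptor, the product of Ahr, is a sensor of small ligands that is needed for much of the IL-22 made by these cells.

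Il17a and Il17f lie next to each other on mouse chromosome 1, with 0 protein-coding genes between them in the RefSeq table. The 200 bases before the transcription start of each are shown because the 2 genes differed between the groups in the same direction, as described below. Sequences are from RefSeq on build GRCm38.p6, not the build of the counts. Il17a is at chr1:20730705-20730904 on the plus strand and Il17f at chr1:20784271-20784470 on the minus strand. Capitals mark the core of the element bound by ROR proteins, AGGTCA, on either strand.
Il17a: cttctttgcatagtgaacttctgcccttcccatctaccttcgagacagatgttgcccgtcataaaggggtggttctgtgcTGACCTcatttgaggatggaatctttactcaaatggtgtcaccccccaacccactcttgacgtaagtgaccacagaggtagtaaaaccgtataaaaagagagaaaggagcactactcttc
Il17f: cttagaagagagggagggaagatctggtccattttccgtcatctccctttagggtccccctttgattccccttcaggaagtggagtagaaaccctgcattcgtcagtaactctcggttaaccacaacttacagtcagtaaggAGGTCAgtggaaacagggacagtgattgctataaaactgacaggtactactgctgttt
Each window held 1 match to that core, which began 120 bases before the Il17a start, on the minus strand, and 58 bases before the Il17f start, on its own strand. Of all 32851 windows of this length in the table, 11.4% held AGGTCA on either strand. The windows of Il23r and of 1 of the 2 Ccr6 starts also held 1 match each, and those of Rora and Il22 held 0. In all, 6 of the 7 genes had a window, Ahr being the one without. The letters GCGTG, the core bound by the aryl hydrocarbon receptor, were in 24.7% of all windows and, among these genes, in that of Rora. These matches describe letters only.

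Srsf1, the targeted gene, was not lower where the label says Srsf1-cKO. It had 4889, 3520 and 3679 counts in WT replicates 1 to 3, and 4839, 4911 and 5022 in Srsf1-cKO replicates 1 to 3. The groups overlapped, with a log2 fold change of 0.06 (SE 0.12, edgeR adjusted p = 0.78) that was -0.0047 without WT replicate 2. Groups are therefore called by their labels, and every direction is that of libraries labelled Srsf1-cKO against WT. The libraries held 7781283 to 10184268 gene counts. WT replicates 2 and 3 were the least alike of the WT pairs, with a chi-square per degree of freedom of 37.5, and Srsf1-cKO replicates 1 and 3 the least alike of theirs, at 27.3.

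Of the 7 genes, 3 (Rora, Ahr and Ccr6) passed the filter on low counts and were tested, and 4 (Il17a, Il17f, Il22 and Il23r) were too low to test. The filter asks for about 1.13 CPM in at least 3 libraries. Of those tested, Ahr rose and 0 fell, against 18.4% of all 10454 tested genes called at an adjusted p under 0.05 by edgeR's quasi-likelihood test, 8.9% higher and 9.5% lower. In CPM, 5 of the 7 genes did not overlap between the groups, 2 of them among the 3 tested, where 39.4% of tested genes did not. Rora was the lower one, and the other 4 (Ahr, Il17a, Il17f and Il22) were higher in every library labelled Srsf1-cKO than in every WT library. The share of genes with such a pattern was 16% of the 15114 with at least 1 count. It was 14.6% of the 1736 genes under the filter with 10 or more counts in all.

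**Figure D1:**
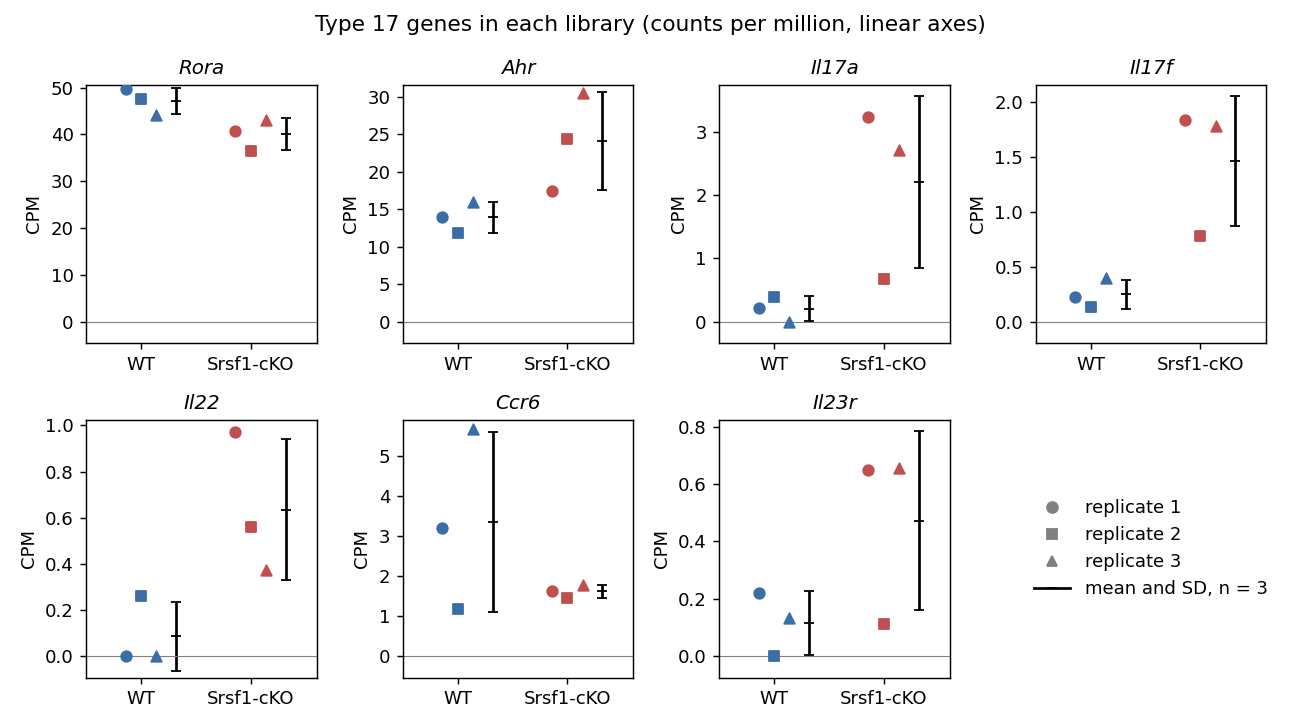
CPM (linear y axes, one per gene) of the 7 type 17 genes in each WT (blue) and Srsf1-cKO (red) library. Symbols mark replicates and the bars beside them give mean and SD (n = 3); Il17a, Il17f, Il22 and Ahr are higher and Rora lower in Srsf1-cKO with no overlap between the groups, while Ccr6 is highest in WT replicate 3.

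Il17a, the gene of the lead type 17 cytokine, was close to the limit of detection in WT. Its counts were 2, 3 and 0 in WT replicates 1 to 3 and 30, 6 and 29 in Srsf1-cKO replicates 1 to 3. Every library labelled Srsf1-cKO was above every WT library, and replicate 2 was the lowest of the Srsf1-cKO libraries by a wide margin. In CPM these were 0.204 ± 0.196 and 2.21 ± 1.36 (SD, n = 3 each). Summed over libraries, 65 counts stood against 5, a ratio of 10.9 per unit of library size with an exact 95% interval of 4.46 to 34.8. That interval covers counting error only, not the spread between mice. In the fit of all 15114 genes without the filter, the log2 fold change was 3.33 (SE 0.78, edgeR adjusted p = 0.0110), where 14.4% of genes were called and 6.6% were called higher. The exact two-sided permutation test of the CPM values gave p = 0.1, the smallest that 3 against 3 libraries allow. Without WT replicate 1 the same fit gave an edgeR adjusted p of 0.122, and without Srsf1-cKO replicate 3 one of 0.0618, while the other 4 fits with a library left out called the gene. With the filter kept, Il17a passed it, through libraries labelled Srsf1-cKO, in some fits with a library left out. It was called without WT replicate 2 (edgeR adjusted p = 0.0384), WT replicate 3 (0.0412) or Srsf1-cKO replicate 2 (0.0431). It was not called without WT replicate 1 (0.112).

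Il17f, whose product pairs with IL-17A or with itself, was also higher in every library labelled Srsf1-cKO than in WT. It had 2, 1 and 3 counts in WT, against 17, 7 and 19 in libraries labelled Srsf1-cKO. Srsf1-cKO replicate 2 was again the lowest of its group. Mean levels were 0.249 ± 0.135 CPM in WT and 1.47 ± 0.595 CPM in libraries labelled Srsf1-cKO (SD, n = 3 each). The summed counts, 43 against 6, gave a ratio of 6.04 (exact 95% interval 2.56 to 17.4, counting error only). The fit without the filter gave a log2 fold change of 2.50 (SE 0.66, edgeR adjusted p = 0.0212), and the exact permutation test again p = 0.1. That call held in 3 of 6 fits with a library left out. It was lost without WT replicate 1 (edgeR adjusted p = 0.132), Srsf1-cKO replicate 1 (0.0559) or Srsf1-cKO replicate 3 (0.0758). With the filter kept, Il17f passed it, through libraries labelled Srsf1-cKO, in some fits with a library left out. It was called without WT replicate 3 (edgeR adjusted p = 0.0263). It was not called without WT replicate 1 (0.110), WT replicate 2 (0.0529) or Srsf1-cKO replicate 2 (0.0547). The Il17a and Il17f transcripts of GENCODE share 0 stretches of 75 bases, the read length, so exact reads of one could not be counted for the other.

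Il22, which encodes a cytokine that acts on epithelial cells, was lower still. It had 0, 2 and 0 counts in WT, against 9, 5 and 4 in libraries labelled Srsf1-cKO. The groups did not overlap, but both WT libraries at 0 could hide up to 0.396 CPM, the level of 3 counts in the smaller one, which is above the 0.375 CPM of Srsf1-cKO replicate 3. The summed counts, 18 against 2, gave a ratio of 7.58 with an exact 95% interval of 1.81 to 67.4 (counting error only). Without WT replicate 2 the WT libraries held 0 counts, and the level was at least 3.45-fold higher, against a floor of 3 counts over both. In the fit without the filter Il22 was not called (log2 fold change 2.72, SE 1.05, edgeR adjusted p = 0.0986; exact permutation p = 0.1). Of the fits that also left out a library, 1 of 6 called it, the one without WT replicate 2 (edgeR adjusted p = 0.0379).

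Il22 has a near-identical neighbour, Iltifb, and reads of the 2 may not be told apart. In GENCODE, 29.9% of the 75-base stretches of the Il22 transcript are also in that of Iltifb. Iltifb was at 0 in the count table in all 6 libraries. In the FPKM table, which scales by length and depth, Iltifb was listed at 0 in the WT libraries and at 0.305, 0.187 and 0.115 FPKM in Srsf1-cKO replicates 1 to 3. Il22 itself stood at 0, 0.210 and 0 FPKM in WT and at 1.03, 0.719 and 0.395 FPKM in libraries labelled Srsf1-cKO. Both copies had their highest FPKM in Srsf1-cKO replicate 1 and the lowest value of that group in replicate 3. Since reads of the 2 may be shared, this common order is not a separate result for Iltifb. Ifng, the gene of interferon gamma, lies beyond Iltifb with 1 protein-coding gene between it and Il22, and rose from 5.48 ± 5.01 to 72.8 ± 29.6 CPM (log2 fold change 3.76, edgeR adjusted p = 0.00761). On the other locus Mcm3, a replication gene next to Il17f, rose from 140 ± 19.1 to 216 ± 13.7 CPM (log2 fold change 0.62, edgeR adjusted p = 0.0192), a call lost without WT replicate 1 or Srsf1-cKO replicate 2. Dyrk2, a kinase gene listed with the Il22 neighbourhood, fell from 58.8 ± 7.33 to 39.8 ± 4.16 CPM (edgeR adjusted p = 0.0375), and was called in 2 of 6 fits with a library left out and neither in the FPKM table (limma adjusted p = 0.0595) nor with library-size scaling (edgeR adjusted p = 0.0663). Of the 8 neighbours listed, 6 were tested, 2 rose and 1 fell, where 8.9% of all tested genes were called higher and 9.5% lower.

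Ahr was the one type 17 gene that rose in the fit of tested genes. Its counts were 126, 91 and 121 in WT, against 161, 219 and 325 in libraries labelled Srsf1-cKO. In CPM these were 13.9, 11.8 and 16.0 against 17.4, 24.4 and 30.5, so that WT replicate 3 and Srsf1-cKO replicate 1 lay close together without overlap. Replicate 3 was the highest library of both groups. The rise was 1.73-fold (log2 fold change 0.79, 95% confidence interval 0.27 to 1.32, SE 0.23, edgeR adjusted p = 0.0454; exact permutation p = 0.1). The call was lost with limma-voom (adjusted p = 0.0570) and in the FPKM table (limma adjusted p = 0.0534). It was also lost without WT replicate 1 (edgeR adjusted p = 0.148), WT replicate 2 (0.0981), Srsf1-cKO replicate 2 (0.136) or Srsf1-cKO replicate 3 (0.116), with the direction kept in each of these fits.

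The partners of the aryl hydrocarbon receptor and the genes it is known to induce gave 0 calls in either direction. Among all tested genes 18.4% were called. All 5 partner genes were tested (median log2 fold change -0.13, against 0.01 for all tested genes). The most abundant of them, Hsp90ab1, which encodes a chaperone that holds the receptor ready for ligand, stood at 4338 ± 331 CPM in WT and 3957 ± 31.9 CPM in libraries labelled Srsf1-cKO. Of 7 target genes 2 were tested. Tiparp, a feedback repressor of the receptor, had 1155, 1198 and 430 counts in WT, against 1050, 699 and 719 in libraries labelled Srsf1-cKO (log2 fold change -0.39, SE 0.34, edgeR adjusted p = 0.434). WT replicate 3 was the lowest of all, and the groups overlapped. Without WT replicate 3, Tiparp fell, with a log2 fold change of -0.73 (edgeR adjusted p = 0.0441). Cyp1a1, the classical induced enzyme gene, chosen after its values were seen, had 1, 3 and 0 counts in WT, against 0, 0 and 1 in libraries labelled Srsf1-cKO, so a difference was not detectable at this depth.

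Rora, which encodes a nuclear receptor that drives the type 17 programme, had the highest mean FPKM of the 7 genes over all 6 libraries, though not in those labelled Srsf1-cKO, and was not called. It stood at 49.6, 47.6 and 44.2 CPM in WT and at 40.7, 36.4 and 43.2 CPM in libraries labelled Srsf1-cKO. All 3 were below the WT libraries, by a margin smaller than the spread within either group. The log2 fold change was -0.23 (SE 0.14, edgeR adjusted p = 0.268), with a 95% confidence interval of -0.55 to 0.08 (exact permutation p = 0.1). In FPKM the groups overlapped, at 3.10, 3.18 and 2.83 in WT and 2.75, 2.57 and 2.98 in libraries labelled Srsf1-cKO.

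Some genes whose products compete with RORA for its DNA element, or oscillate with it in the circadian clock, fell. Of 4 such genes tested, 3 fell, 0 rose and 1, Nfil3, was not called, where 9.5% of all tested genes were called lower. The median log2 fold change of the list was -0.74, against 0.01 for all tested genes. Nr1d1, the gene of the repressor REV-ERB alpha, fell from 36.5 ± 12.1 to 12.6 ± 1.55 CPM (log2 fold change -1.53, SE 0.26, edgeR adjusted p = 0.00988). It overlaps the 3′ end of Thra on the other strand, and reads of the 2 could be shared if counting ignored strand. Arntl, which encodes the clock activator BMAL1, fell from 15.7 ± 3.28 to 8.90 ± 0.577 CPM (edgeR adjusted p = 0.0310), and Nr1d2, the second REV-ERB gene, from 56.8 ± 12.1 to 36.0 ± 3.88 CPM (edgeR adjusted p = 0.0407). The 3 genes that fell did not overlap between the groups, where 39.4% of all tested genes did not in either direction. As they were picked by their calls on the same counts, this is not separate support. The calls of Arntl and Nr1d2 were lost in the FPKM table (limma adjusted p = 0.0707 and 0.0928), and that of Nr1d2 with library-size scaling (edgeR adjusted p = 0.0586). The number that fell was 0 without WT replicate 1 or Srsf1-cKO replicate 2, 3 without WT replicate 2, and 1 without each of the others.

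Ccr6, a chemokine receptor gene of type 17 cells, was low and uneven among WT libraries. Its counts were 29, 9 and 43 in WT, against 15, 13 and 19 in libraries labelled Srsf1-cKO. WT replicate 3 was the highest and WT replicate 2 the lowest of all 6, so the Srsf1-cKO libraries lay inside the WT range. Mean levels were 3.35 ± 2.26 CPM in WT and 1.62 ± 0.166 CPM in libraries labelled Srsf1-cKO (SD, n = 3 each). Ccr6 had a log2 fold change of -1.04 (SE 0.51, edgeR adjusted p = 0.184), with a 95% confidence interval of -2.20 to 0.12 (exact permutation p = 0.4). It was -0.47 without WT replicate 3 (edgeR adjusted p = 0.511) and -1.44 without WT replicate 2, where it passed (0.0341). In the fit without the filter it was not called either (edgeR adjusted p = 0.169).

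Il23r, which encodes the ligand-specific chain of the IL-23 receptor, was the lowest of the 7 genes. It had 2, 0 and 1 counts in WT, against 6, 1 and 7 in libraries labelled Srsf1-cKO. Srsf1-cKO replicate 2, the lowest of its group here as for Il17a and Il17f, lay within the WT range. The summed counts, 14 against 3, gave a ratio of 3.93 with an exact 95% interval of 1.10 to 21.3 (counting error only). In the fit without the filter the log2 fold change was 1.84 (SE 1.01, edgeR adjusted p = 0.258; exact permutation p = 0.3). Its partner chain gene Il12rb1, chosen after its values were seen, was far more abundant, at 58.1 ± 34.6 CPM in WT and 53.8 ± 14.8 CPM in libraries labelled Srsf1-cKO (edgeR adjusted p = 0.856).

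Levels of different genes are compared here per length, by the deposited FPKM. In WT the order of mean FPKM was Rora (3.04 ± 0.186), Ccr6 (1.86 ± 1.26), Ahr (1.78 ± 0.229), Il17f (0.177 ± 0.0969), Il17a (0.147 ± 0.144), Il22 (0.0701 ± 0.121) and Il23r (0.0349 ± 0.0325). Each neighbouring pair lay within the larger of its SDs, except Ahr above Il17f. In libraries labelled Srsf1-cKO the order was Ahr (3.35 ± 0.926), Rora (2.77 ± 0.203), Il17a (1.63 ± 0.964), Il17f (1.12 ± 0.440), Ccr6 (0.899 ± 0.0628), Il22 (0.714 ± 0.316) and Il23r (0.152 ± 0.0999). There the same held, except for Rora above Il17a and Il22 above Il23r. Rora ranked first in 3 of 6 libraries, Ahr in 2 and Ccr6 in 1, WT replicate 3.

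**Figure D2:**
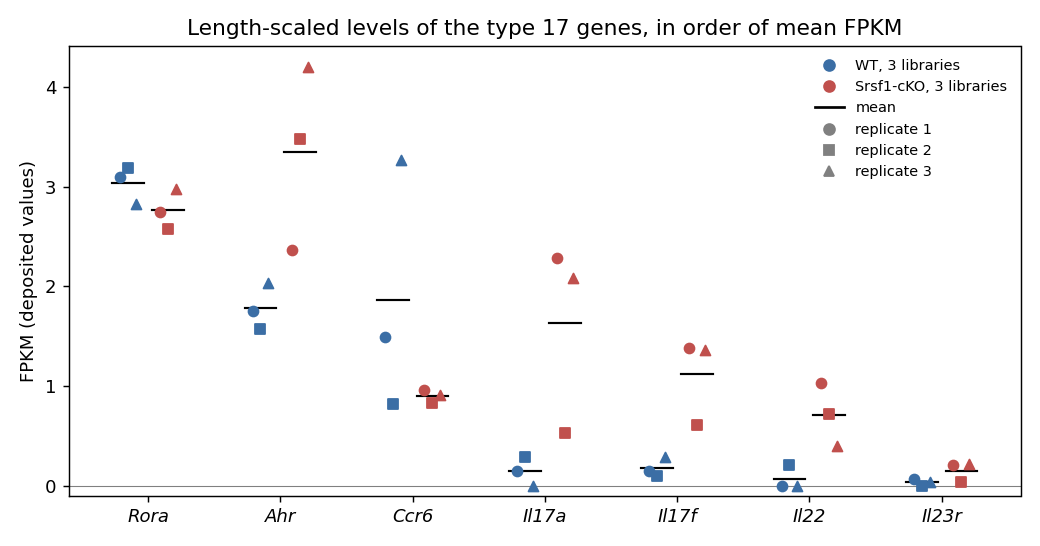
Deposited FPKM (linear y axis) of the 7 genes in each library, in order of mean FPKM, WT in blue and Srsf1-cKO in red, with black lines at the mean of 3 libraries. Rora, Ahr and Ccr6 were the highest in WT, and Il17a reached 2.28 and 2.09 FPKM in Srsf1-cKO replicates 1 and 3 against 0.525 in replicate 2.

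Other transcription factors of the type 17 programme gave 2 falls and 0 rises among 10 tested (median log2 fold change -0.11, against 0.01 for all tested genes). For all tested genes the shares called were 9.5% lower and 8.9% higher. Bhlhe40, which encodes a factor that promotes cytokine output, fell from 768 ± 124 to 378 ± 80.6 CPM (edgeR adjusted p = 0.0113). Fosl2, which encodes an AP-1 factor, fell from 190 ± 52.3 to 98.7 ± 19.9 CPM (edgeR adjusted p = 0.0250). Irf4, which encodes a factor that opens these loci together with BATF, was the most abundant, at 3118 ± 321 and 4053 ± 189 CPM, and was not called (log2 fold change 0.38, edgeR adjusted p = 0.0643). Irf4 did pass, as higher, in 6 alternatives, with library-size scaling (edgeR adjusted p = 0.0237), DESeq2 (adjusted p = 0.0460), limma-voom (adjusted p = 0.0480), both pseudocounts of the FPKM table (limma adjusted p = 0.0269 and 0.0272) and without WT replicate 3 (edgeR adjusted p = 0.0377). Without WT replicate 1 or Srsf1-cKO replicate 2, 0 of the 10 fell, and without WT replicate 2 or Srsf1-cKO replicate 3, 1 did. Without WT replicate 3, 3 fell and 1 rose.

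Genes upstream of the programme were largely not called. Of 14 tested receptors and signalling genes for IL-6, IL-1, IL-21, IL-23 and TGF-beta, 1 fell and 0 rose (median log2 fold change -0.13). Among all tested genes 9.5% were called lower and 8.9% higher. Smad4, the shared carrier of TGF-beta signals, fell from 153 ± 8.60 to 102 ± 12.5 CPM (log2 fold change -0.58, edgeR adjusted p = 0.0214), a call lost without WT replicate 1 or Srsf1-cKO replicate 2, while 3 genes of the list fell without WT replicate 3. Jak2, a kinase gene of the IL-23 receptor and the most abundant, stood at 2683 ± 338 and 1926 ± 557 CPM (edgeR adjusted p = 0.1397). The list of receptors of the type 17 cytokines also holds the adaptor gene Traf3ip2 and the decoy receptor gene Il22ra2. Of its 6 genes, 3 were tested and 0 were called, against 1 without WT replicate 2. Il17ra, the most abundant, stood at 124 ± 18.2 CPM in WT and 94.97 ± 2.23 CPM in libraries labelled Srsf1-cKO (edgeR adjusted p = 0.0867). Of Il17b, Il17c, Il17d and Il25, the IL-17 family genes outside type 17 cells, 3 were at 0 in every library.

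Other products that type 17 cells can make rose in part. Of 5 tested, 3 rose and 0 fell, where 8.9% of all tested genes were called higher. All 3 needed the libraries labelled Srsf1-cKO, where they are high, to pass the filter. In WT, Il9 stood at 0, 0.130 and 0 CPM, Il21 at 0.332, 0.650 and 1.72 CPM, and Il10 at 1.11, 1.30 and 1.19 CPM. Il9 therefore had to differ, and the filter bears on the calls of Il21 and Il10 too. Il21, whose product feeds back on type 17 cells, had 3, 5 and 13 counts in WT, against 50, 33 and 72 in libraries labelled Srsf1-cKO (log2 fold change 2.57, SE 0.52, edgeR adjusted p = 0.0138). Il9 had 0, 1 and 0 counts in WT, against 17, 13 and 15 in libraries labelled Srsf1-cKO (edgeR adjusted p = 0.00859), and Il10 had 10, 10 and 9 against 106, 43 and 86 (edgeR adjusted p = 0.00663). These 3 did not overlap between the groups, where 19.9% of all tested genes were higher in Srsf1-cKO without overlap. The 3 are named for their calls on the same counts, so this is not separate support. Other helper lineages make them too. Tnf, the most abundant of the products, stood at 259 ± 190 and 206 ± 68.1 CPM and was not called (edgeR adjusted p = 0.635), with a log2 fold change of -0.33 that was 0.44 without WT replicate 3. Without WT replicate 1, 1 of the products rose.

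Genes that restrain the type 17 programme were mostly not called. Of 10 tested, 2 rose and 1 fell, where 8.9% of all tested genes were called higher and 9.5% lower. The median log2 fold change of the list was 0.36. Foxp3, the lineage gene of regulatory T cells, rose from 10.7 ± 1.96 to 31.3 ± 8.50 CPM (edgeR adjusted p = 0.00761). Socs3, a brake on STAT3, rose from 13.5 ± 1.601 to 26.7 ± 5.004 CPM (edgeR adjusted p = 0.0138). Tcf7, the gene of TCF1, which can repress Il17a, fell from 762 ± 14.5 to 379 ± 57.6 CPM (edgeR adjusted p = 0.00648). Stat5a, the most abundant, stood at 962 ± 124 and 1052 ± 169 CPM (edgeR adjusted p = 0.597). Without WT replicate 1, 0 of the 10 rose, and without WT replicate 3, 4 did, while the fall of Tcf7 passed in all 6 fits with a library left out.

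**Figure D3:**
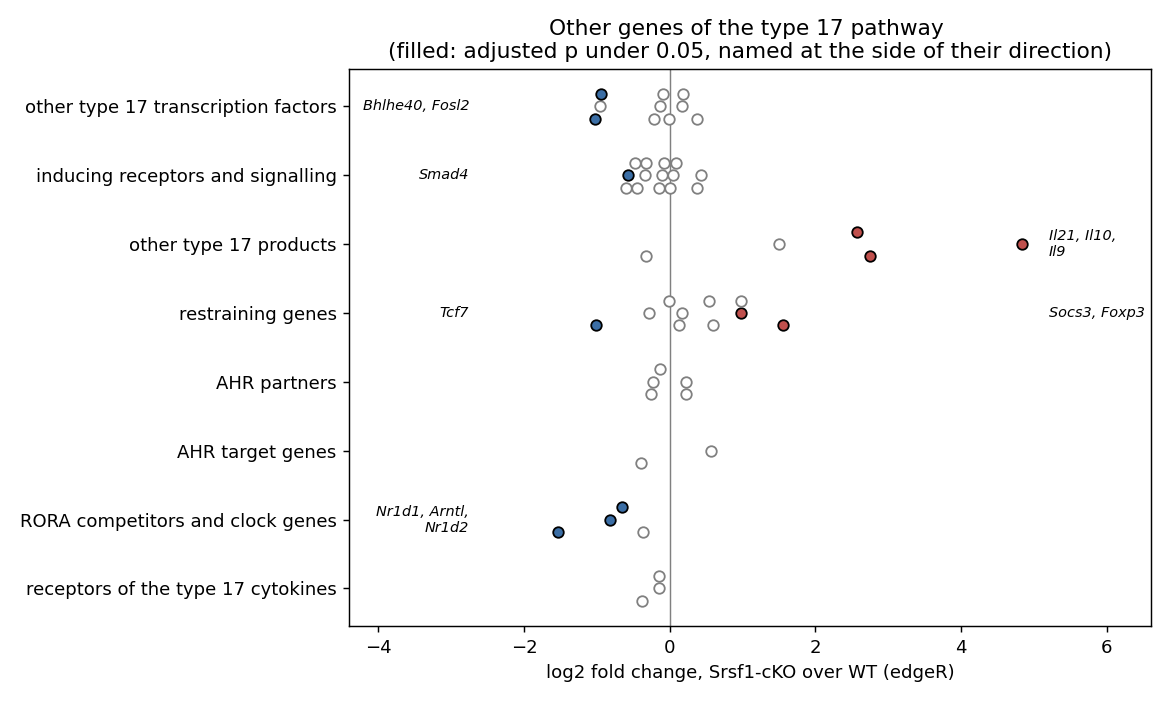
Log2 fold change (edgeR, Srsf1-cKO over WT, 3 libraries each) of each tested gene in 8 lists around the type 17 programme, one point per gene, filled where the adjusted p was under 0.05. Of the called products Il21 lies at 2.57, Il10 at 2.75 and Il9, which rests on 1 count in WT, at 4.83. All of these products needed the Srsf1-cKO libraries to pass the filter on low counts. The called clock genes lie between -1.53 and -0.66.

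Other cells can make these cytokines, so their markers were read in the same libraries. In bulk RNA, more cells of a type and more RNA per cell cannot be told apart. Of 5 gamma delta T cell markers 3 had a row, with a summed level of 0 to 0.442 CPM in WT and 0.845 to 2.12 CPM in libraries labelled Srsf1-cKO. Most of that was Blk, also a B cell gene, with 3, 3 and 0 counts against 12, 19 and 7. Trdc and Tcrg-C1 of this list had no row. Sox13 and Cd163l1, more specific than Blk, held at most 2 counts in any library. Of 6 innate lymphoid and NKT cell markers, Kit and Il1rl1 rose (edgeR adjusted p = 0.0420 and 0.0160). Il1rl1, and likewise Cd79a of the B cell list and Lyz2 of the myeloid list, passed the filter only because of libraries labelled Srsf1-cKO. Lyz2 stood at 2.10, 0.520 and 0 CPM in WT. Over all tested genes, 8.9% were called higher. Of the innate markers too low to test, Ncr1 was at 0 in every library, and Zbtb16 and Klrb1c overlapped between the groups. Klrb1f had 0, 0 and 1 counts in WT, against 9, 6 and 7 in libraries labelled Srsf1-cKO. The summed level of the 6 innate lymphoid and NKT cell markers was 5.54 to 14.6 CPM in WT and 20.2 to 32.9 CPM in libraries labelled Srsf1-cKO. The B cell list summed to 1.19 to 6.50 CPM in WT and 7.98 to 19.6 CPM in libraries labelled Srsf1-cKO, with 1 of 4 tested genes, Cd79a, called. For the myeloid and dendritic list these sums were 58.0 to 80.9 and 116 to 131 CPM, with 3 of 5 tested genes called (H2-Aa, Cd74 and Lyz2). Cd74 held most of the difference of that sum, at 45.1 ± 8.87 and 81.7 ± 5.999 CPM. H2-Ab1, the partner chain of H2-Aa, was not called and had the lower mean in libraries labelled Srsf1-cKO, at 15.01 ± 9.93 and 12.3 ± 4.23 CPM. Of the myeloid and dendritic genes too low to test, Itgax had 0, 0 and 0 counts in WT, against 5, 7 and 13 in libraries labelled Srsf1-cKO. Csf1r, Emr1 and Flt3 overlapped between the groups. The call of Lyz2 was lost with DESeq2 (adjusted p = 0.101) and limma-voom (adjusted p = 0.0534). Without WT replicate 1 or Srsf1-cKO replicate 2, 0 genes of these innate, B cell and myeloid lists were called. The CD8 list summed to 24.6 to 42.5 CPM in WT and 16.7 to 22.8 CPM in libraries labelled Srsf1-cKO. The part of these cells in the differences of Il17a, Il17f, Il22 and Ahr was not tested.

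Among the 8801 other genes with a mean of at least 5 CPM, the ones whose log2 CPM followed Ahr most closely over the 6 libraries were Nasp (Pearson r = 0.997), Uqcr11 (0.997) and Nfkbie (0.994). For Rora they were Zfp281 (0.996), Gpsm3 (0.988) and Ergic3 (0.986). With 6 libraries such values were not rare, since 101 genes reached 0.95 with Ahr and 61 with Rora. They describe these libraries, which share depth and group, and carry no test.

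**Figure D4:**
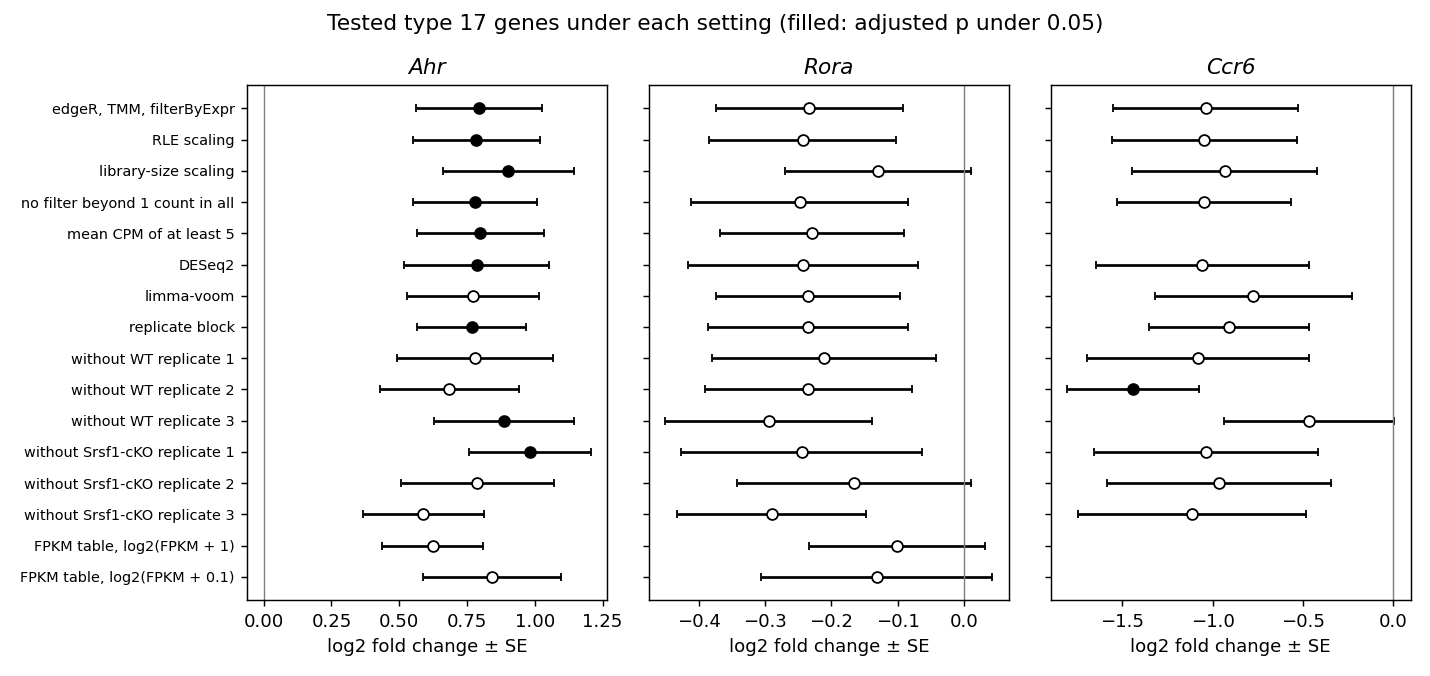
Log2 fold change with its SE (x axes differ between panels) of the 3 tested type 17 genes under each setting and with each library left out, filled where the adjusted p was under 0.05. Ahr stays above 0 in each, between 0.59 and 0.98, and Ccr6 moves between -1.44 and -0.47 as WT replicate 2 or 3 is left out.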

How the data were processed

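RNA of 6 libraries was sequenced as single-end reads of 75 bases from a stranded kit, per the design text. The authors deposited raw counts, whole numbers for each gene and library. They also deposited FPKM in another table, a unit inferred from its values. STAR 2.4.2a is named in a file header, and STAR, Cufflinks and mm9 in the submitters' processing notes. The sources used here name no counting program, annotation or strand setting.

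Counts were tested on all genes with edgeR 4.0.16 in R 4.3.3 (filterByExpr, TMM, quasi-likelihood test, genotype as the only term, Benjamini-Hochberg), and a call means an adjusted p under 0.05. For FPKM, limma 3.58.1 with its trend option was run on log2(FPKM + 1), keeping genes that reached 1 in 3 libraries. This scale understates folds of low genes. CPM use TMM library sizes of the tested genes, at which 3 counts stand for 0.282 to 0.396 CPM. Exact intervals are conditional binomial intervals of summed counts. Exact permutation tests of 7 genes are two-sided and unadjusted. Scripts were tested on simulated data, and replicate pairs differed by more than sampling noise.

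The 7 genes and the 16 lists around them were chosen with earlier results of these data known. Genes named are the 7, Srsf1, for each list its most abundant tested gene and up to 4 called genes, by adjusted p, and the 3 closest genes by correlation. Others are marked, and lists of cell markers are given by their sums, calls and genes near 0. Alternatives were DESeq2 1.42.0, limma-voom, scaling by RLE or by library size, 2 other filters, a replicate block, each library left out and the FPKM table. Fits that combine no filter with a left-out library, a block or DESeq2 were added after the data were seen. One gene of the list of transcription factors is not reported here and was left out of its counts.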

Additional observations from a re-analysis of the deposited data

How the results depend on the processing

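In all, 1923 genes were called changed, and 195 to 1989 with 1 library left out, lowest without WT replicate 1 (195) and Srsf1-cKO replicate 2 (234), then Srsf1-cKO replicate 1 (1121). The number of the 7 genes called was 1. It was 3 without a filter (Ahr, Il17a and Il17f), and also 3 without a filter by DESeq2. It was 0 with limma-voom and with either FPKM pseudocount, and 0 to 3 with a library left out (0 to 4 without a filter as well). Where the filter was kept, Il17a and Il17f entered these counts only by passing it through libraries labelled Srsf1-cKO, where they are high. The log2 fold change of Ahr, 0.79, was 0.77 with limma-voom (adjusted p = 0.0570), 0.62 on log2(FPKM + 1) and 0.84 on log2(FPKM + 0.1) (limma adjusted p = 0.0534 and 0.0551), and 0.59 to 0.98 with a library left out. That of Ccr6 was -1.44 to -0.47 with a library left out. That of Il22, 2.92 from summed counts, was 2.25 to 3.22 from the sums in 5 of 6 cases with a library left out. In fits without a filter it was 2.14, 2.24 and 2.30 without WT replicate 1, WT replicate 3 or Srsf1-cKO replicate 1. Without WT replicate 2, WT held 0 counts of Il22, so only the bound of at least 3.45-fold is given. The log2 fold change of Il23r, 1.97 from summed counts, was 1.43 to 2.89 from the sums with a library left out. It was 1.34 to 2.62 in fits that left out a library and used no filter. Among the 7 genes, Srsf1 and the genes taken by rule from the lists, for which every alternative was run where the gene passed its filter, the sign turned for Srsf1 (-0.0047 to 0.12 with a library left out, lowest without WT replicate 2) and Tnf (-0.66 to 0.44, highest without WT replicate 3). Same-numbered libraries did not all deviate together (correlations 0.22, 0.0128 and 0.27), so they share a number only. With a replicate block, 2270 genes and 1 of the 7 were called, and 3 of the 7 with a replicate block and no filter. Jak2, not called otherwise, passed with the block (log2 fold change -0.51, edgeR adjusted p = 0.0310), and Lyz2 did not (0.0501). Il17a, Il17f, Il22 and Il23r gave no value under DESeq2, limma-voom, RLE, the block or the FPKM tests with their filters. At this depth 3 counts stand for about 0.3 to 0.4 CPM, which limits those 4 genes.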
